A study of Mus musculus with 12 samples.

Results

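MHC class I and its antigen processing machinery, 10 of the 30263 genes in the colon count tables, were followed in colons of mice labelled wild type (WT) and of mice labelled KO for S1PR4, a receptor for the lipid sphingosine 1-phosphate. They were listed by symbol, with earlier results of these data known. H2-K1, H2-D1 and B2m encode the class I molecule, Tap1, Tap2 and Tapbp load it with peptide, Psmb8, Psmb9 and Psmb10 are the catalytic subunits of the immunoproteasome, and Nlrc5 is the transactivator of the class I genes. The count tables of the CD8+ T cells that the same study sorted from mammary tumors list 0 of the 10 among their 357 genes, so the values below are all from colon.

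All colon mice were C57BL/6. WT and KO alike had received the carcinogen azoxymethane (AOM) at 10 mg/kg and 0.5% dextran sulfate sodium (DSS, an irritant of the gut epithelium) in the drinking water at days 1 to 6, 21 to 27 and 47 to 52, and whole colons were taken at day 84. Each group had 3 libraries. The labels give neither age nor sex, do not say how the KO allele was made, and do not state that each library was a separate animal, so p-values measure the spread between these samples only. Untreated colons were not analysed here. The comparison addresses whether class I expression in AOM/DSS colon depends on the genotype label.

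Class I molecules display peptides from inside the cell to CD8+ T cells. The proteasome cuts proteins into peptides, the TAP transporter carries these into the endoplasmic reticulum, and tapasin holds the waiting class I molecule beside TAP until a peptide fits. Interferon gamma raises the whole set of genes: it swaps the constitutive catalytic subunits of the proteasome for the immunoproteasome subunits, and NLRC5 brings the transcription machinery to a conserved promoter module, called SXY, of the class I genes and their partners. Nearly all nucleated cells carry class I, so in colon the signal comes from epithelium, stroma and immune cells together. In a bulk sample, fewer cells of a type and less RNA per cell cannot be told apart.

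By GENCODE vM21 (GRCm38) the protein-coding members lie as follows. H2-K1 is at chr17:33996017-34000347 (minus strand), H2-D1 at chr17:35262730-35267499 (plus) and B2m at chr2:122147686-122153083 (plus). Tap1 is at chr17:34187553-34197225 (plus), Tap2 at chr17:34203527-34216321 (plus) and Tapbp at chr17:33915899-33929292 (plus). Psmb8 is at chr17:34197721-34201454 (plus), Psmb9 at chr17:34181987-34187764 (minus), Psmb10 at chr8:105935735-105938444 (minus) and Nlrc5 at chr8:94434356-94527272 (plus). Psmb9, Tap1, Psmb8 and Tap2 thus form a row within the MHC region.

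The promoters of H2-K1, H2-D1 and B2m share some regulatory letters. RefSeq (GRCm38.p6) gave windows of 250 bases before to 50 bases after the gene start for 8 of the 10 members; Tap2 and Nlrc5 had no entry. Stretches of the strand of each gene are shown 5′ to 3′. Those of H2-K1, H2-D1 and B2m hold regulatory letters by which class I genes are known to respond to interferon and to NLRC5. In H2-K1 (chr17:34000349-34000468, minus strand) and H2-D1 (chr17:35262913-35263032, plus strand), the capitals mark in order a kappa B site of enhancer A, the class I interferon consensus sequence, an X2 core and a Y box. In B2m (chr2:122147538-122147648, plus strand) they mark an interferon-stimulated response element, an X2 core and a Y box. In Tap1 (chr17:34187324-34187484, plus strand), they mark only the letters of a Y box in reverse and of an X2 core. These lie in the other order and further apart than in H2-K1, H2-D1 and B2m. No interferon motif searched was in the Tap1 window. The search took the letters as given, so sites with other letters would be missed.
H2-K1: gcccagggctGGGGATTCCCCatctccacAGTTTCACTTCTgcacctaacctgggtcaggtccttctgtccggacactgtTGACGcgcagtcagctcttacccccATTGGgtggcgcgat
H2-D1: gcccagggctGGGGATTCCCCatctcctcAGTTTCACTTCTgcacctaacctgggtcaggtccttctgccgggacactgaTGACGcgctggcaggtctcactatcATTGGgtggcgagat
B2m: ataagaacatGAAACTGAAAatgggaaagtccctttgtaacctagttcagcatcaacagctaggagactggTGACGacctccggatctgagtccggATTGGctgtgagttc
Tap1: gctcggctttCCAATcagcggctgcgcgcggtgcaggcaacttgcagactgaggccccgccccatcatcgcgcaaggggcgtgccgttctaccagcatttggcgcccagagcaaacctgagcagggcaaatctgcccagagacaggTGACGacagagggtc

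The letters were searched on both strands of all 32851 promoter windows. The kappa B letters, as capitalized above, were in 0.0304% of windows and those of the interferon consensus sequence in 0.0335%, and among the members both were in H2-K1 and H2-D1. The interferon-stimulated response element was in 3.44% of windows and, of the members, in B2m. The X2 core TGACG alone was in 20.8% of windows and the Y box ATTGG alone in 37.4%. Joined with 20 bases between them, a spacing chosen after these windows were read, they were in 0.0944% of windows, and H2-K1, H2-D1 and B2m all held the pair. The gamma-activated site TTCNNNGAA was in 8.30% of windows and, of the members, in Psmb8. Windows were also found for 12 other class I and class I-like genes. Of these, 1 held the kappa B letters, 4 the interferon consensus sequence and 1 the pair. None of the motifs searched overlapped another except that the pair consists of the X2 core and the Y box. Tap1 and Psmb9 lie head to head, and their windows share 275 of 300 bases, so the X2 core in the Tap1 stretch is in the Psmb9 window too. A match in letters is a description and does not show that a factor binds.

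The colon libraries held between 7304082 and 8652561 counts each. S1pr4, the gene named in the genotype, had 25 to 61 counts in libraries labelled WT and 118 to 162 in those labelled KO, so it was higher where the label calls it lost. From a total per gene it cannot be seen which stretch of S1pr4 was read. WT and KO therefore name labels throughout, and every direction rests on them. Xist, expressed from the inactive X chromosome, was at 515 to 591 CPM (counts scaled to a common library size) in WT replicate 1 and KO replicates 2 and 3. WT replicates 2 and 3 and KO replicate 1 had at most 6.75 CPM of Xist and 63.3 to 81.1 CPM of Ddx3y, a Y-linked gene. Label and these sets are thus not balanced, and values within each set are given for each member.

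None of the class I genes differed between the labels beyond the spread of the libraries. EdgeR called 0 of the 10 members at an adjusted p of 0.05, as it called 0% of the 17195 genes tested, and 0 of the 10 had an unadjusted p under 0.05, beside 5.06% of all genes (2.44% with KO lower). DESeq2 also called 0 of the 10, beside 0.0815% of 17173 genes that edgeR tested too. It had 0 of them at an unadjusted p under 0.05, beside 3.39% of 30189 genes without the filter on low counts. Limma-voom called 0 of the 10 as well and had 1 of them at an unadjusted p under 0.05, beside 24.1% of all genes. The groups overlapped for every member, while they did not overlap for 9.58% of all genes. The fitted log2 difference, KO minus WT, was below 0 for 6 of the 10, beside 51% of all genes. Its median was -0.050 over the members and -0.0045 over all genes, with member values between -0.20 for Psmb8 and 0.056 for B2m. The members differed in how their KO libraries spread. The SD over 3 libraries was 1.995 to 4.72 CPM in WT and 7.80 to 17.9 CPM in KO for Tap1, Tap2, Psmb8 and Psmb9, whereas for H2-K1, H2-D1, B2m and Tapbp the SD was lower in KO than in WT. This difference in spread was not tested.

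**Figure D1:**
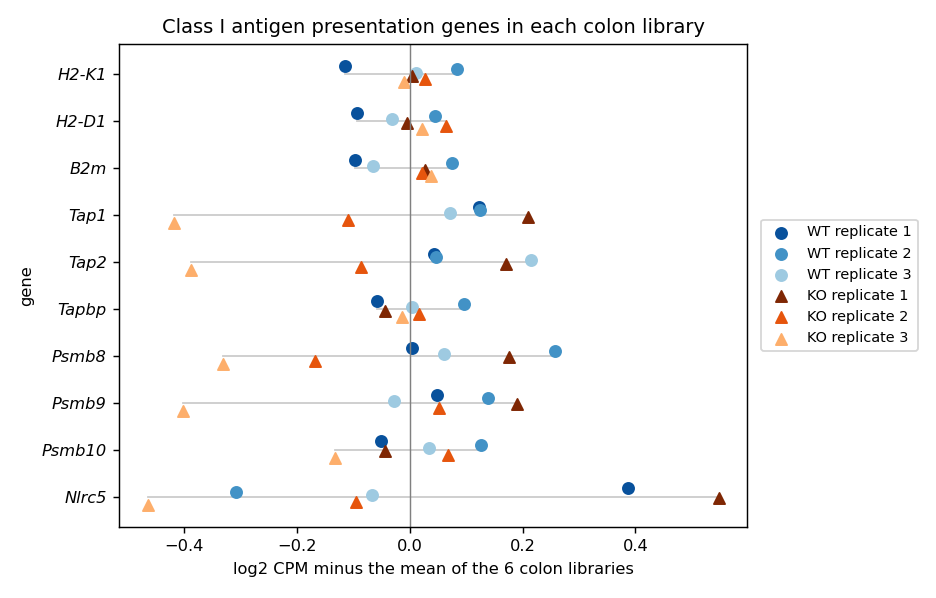
Each row is a gene and each point a colon library, placed at its log2 CPM minus the mean of the 6 libraries (circles WT, triangles KO, shades replicates 1 to 3). KO replicate 3 is lowest for Tap1, Tap2, Psmb8, Psmb9, Psmb10 and Nlrc5, at -0.46 for Nlrc5, while H2-K1, H2-D1, B2m and Tapbp stay within 0.12 of their means.

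The heavy chain H2-K1, which binds the peptide and is read by the T cell receptor (ENSMUSG00000061232, GRCm38 chromosome 17), stood at 144, 165 and 157 CPM in WT and at 156, 159 and 155 CPM in KO. All 3 KO values lay inside the range of WT. Before scaling, H2-K1 had 1214, 1233 and 1254 counts in WT and 1222, 1199 and 1135 counts in KO. The log2 difference was 0.012 ± 0.067 (SE), with a 95% interval from -0.15 to 0.18 (edgeR adjusted p = 0.976). The other classical heavy chain of this strain, H2-D1 (ENSMUSG00000073411, chromosome 17), stood at 145, 160 and 152 CPM in WT and at 154, 162 and 157 CPM in KO. KO replicate 2 was slightly above every WT library and the other 2 were inside their range. Its difference was 0.052 ± 0.060 (SE, 95% interval from -0.093 to 0.20, edgeR adjusted p = 0.880). B2m, the invariant light chain without which the heavy chain does not reach the surface (ENSMUSG00000060802, chromosome 2), stood at 72.2, 81.3 and 73.8 CPM in WT and at 78.6, 78.3 and 79.2 CPM in KO. The KO libraries lay close together, between the WT libraries. The B2m difference was 0.056 ± 0.073 (SE, 95% interval from -0.12 to 0.23, edgeR adjusted p = 0.888). Within the Xist-high libraries the differences of H2-K1, H2-D1 and B2m were 0.12, 0.14 and 0.13. Within the Y-linked libraries they were -0.044, -0.012 and 0.022.

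These 3 genes, Tapbp and Psmb10 were among the most densely counted genes. The highest count per annotated exon base of any gene was 0.919 to 0.973 in the 6 libraries. B2m averaged 0.697 counts per exon base and ranked 23 among the tested genes, H2-D1 averaged 0.467, H2-K1 0.412, Tapbp 0.389 and Psmb10 0.335. The other 5 members were between 0.0237 (Nlrc5) and 0.132 (Tap2). Among all tested genes, 1176 were above 0.3 counts per exon base. Over genes with the same range of mean count as the members, the median standard deviation (SD) of log2 CPM across the 6 libraries was 0.103 above that limit (751 genes) and 0.149 at or below it (7825 genes). For members it was 0.055 to 0.093 above the limit and 0.21 to 0.39 below it. The narrow intervals of the 5 dense members hold on the scale of the deposited counts. The part of read density in the small spread was not tested.

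**Figure D2:**
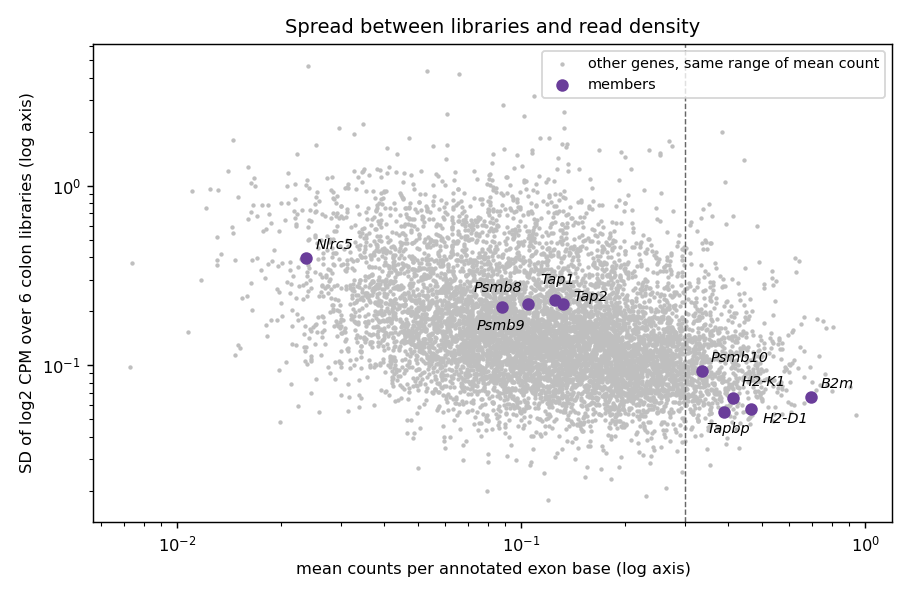
Grey points are tested genes with a mean count in the range of the members, purple points the members; the horizontal axis is mean counts per annotated exon base and the vertical axis the SD of log2 CPM over the 6 colon libraries, both log axes. The 5 members to the right of the dashed line at 0.3 have SDs of 0.055 to 0.093, and the 5 to its left 0.21 to 0.39.

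Heavy chain counts are also uncertain because the genes resemble each other. Of the 50-base words in annotated transcripts (GENCODE vM21), 9.63% of those of H2-K1 and 12.8% of those of H2-D1 occur in transcripts of another gene, against 0% for B2m, Psmb9, Psmb10 and Nlrc5 and at most 2.87% for the rest. The gene that held the most of them was H2-Q10 for H2-K1 and H2-Q1 for H2-D1, both class I genes. How the authors' counting treated such reads is not given in the sources used here. Summed over 17 class I heavy chain genes of the H2-K, D, Q, T and M groups, the level was 681, 759 and 706 CPM in WT and 753, 711 and 621 CPM in KO. The sum differed by -0.041 ± 0.090 (SE, log2, edgeR adjusted p = 0.935), so the class as a whole did not differ by label either beyond its spread.

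Tap1 and Tap2 form the transporter that feeds peptides to class I. Tap1 (ENSMUSG00000037321, chromosome 17) stood at 94.6, 94.8 and 91.3 CPM in WT and at 101, 80.5 and 65.0 CPM in KO. The WT libraries lay close together, while KO replicate 1 was above and KO replicates 2 and 3 were below all of them. The mean of Tap1 was 93.6 CPM (SD 1.995) over 3 WT libraries and 82.0 CPM (SD 17.9) over 3 KO libraries, and the fitted difference was -0.19 ± 0.16 (SE, log2, 95% interval from -0.57 to 0.19, edgeR adjusted p = 0.850). Its partner Tap2 (ENSMUSG00000024339, chromosome 17) stood at 65.3, 65.4 and 73.5 CPM in WT and at 71.4, 59.6 and 48.3 CPM in KO. The order of the KO libraries was that of Tap1, and the Tap2 difference was -0.19 ± 0.15 (SE, 95% interval from -0.56 to 0.18, edgeR adjusted p = 0.850). Without KO replicate 1, the Tap1 and Tap2 differences were -0.37 and -0.34, and without KO replicate 3 they were -0.040 and -0.048, with no call in either case. Without KO replicate 1, 3 of the 10 members had an unadjusted p under 0.05 in edgeR, beside 20.9% of all genes (lowest adjusted p of a member 0.160). KO minus WT was -0.39 for Tap1 and -0.28 for Tap2 among Xist-high libraries, and among Y-linked libraries 0.11 and 0.041.

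Tapbp encodes tapasin, which bridges the empty class I molecule to TAP. Tapbp (ENSMUSG00000024308, chromosome 17) stood at 174, 194 and 182 CPM in WT and at 176, 184 and 180 CPM in KO, all KO values within the WT range. It differed by -0.029 ± 0.062 (SE, log2, edgeR adjusted p = 0.934). Part of its exons, 904 of 3628 bases, lie opposite the antisense gene Gm19412 and 149 overlap Zbtb22 on the same strand, and strand-specific counting was not stated. Tap1 and Psmb9 overlap each other on opposite strands over 212 bases, Tap2 lies opposite Gm15821 over 533 bases, and Psmb8 opposite Gm20496 over 498 of its 3381 exon bases.

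For the immunoproteasome subunits, as for the transporter, KO replicate 3 was the lowest library. Psmb8, the chymotrypsin-like subunit LMP7 (ENSMUSG00000024338, chromosome 17), stood at 45.1, 53.8 and 46.9 CPM in WT and at 50.8, 39.9 and 35.7 CPM in KO. KO replicate 1 was among the WT libraries, and KO replicates 2 and 3 were below all 3 of them. The Psmb8 difference, -0.20 ± 0.16 (SE, log2, 95% interval from -0.58 to 0.18, edgeR adjusted p = 0.846), was the most negative of the 10 members. Psmb9, the caspase-like position subunit LMP2 (ENSMUSG00000096727, chromosome 17), stood at 42.3, 45.1 and 40.1 CPM in WT and at 46.7, 42.5 and 30.9 CPM in KO. KO replicate 1 was highest and KO replicate 3 lowest of the 6, and the Psmb9 difference was -0.087 ± 0.17 (SE, log2, edgeR adjusted p = 0.929), or 0.076 without KO replicate 3. Psmb10, the trypsin-like subunit MECL-1 (ENSMUSG00000031897, chromosome 8), stood at 70.7, 80.0 and 75.0 CPM in WT and at 71.1, 76.8 and 66.9 CPM in KO. KO replicate 3 was again lowest, by a smaller margin in this denser gene, and Psmb10 differed by -0.071 ± 0.086 (SE, log2, edgeR adjusted p = 0.884).

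Within the Xist-high libraries the differences of Psmb8, Psmb9 and Psmb10 were -0.25, -0.22 and 0.019; in the Y-linked libraries they were 0.017, 0.13 and -0.12.

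The constitutive subunits that the immunoproteasome replaces were not lowest in KO replicate 3. Psmb5, the counterpart of Psmb8, differed by 0.022 ± 0.15, Psmb6, the counterpart of Psmb9, by -0.023 ± 0.096, and Psmb7, the counterpart of Psmb10, by 0.097 ± 0.12 (SE, log2). In KO replicate 3 the 3 constitutive genes averaged 0.094 above their 6-library mean (log2) and the 3 immunoproteasome genes 0.29 below theirs. KO replicate 1 had the opposite, with -0.16 for the constitutive and 0.11 for the immunoproteasome genes. The ratio of the summed counts of the 3 immunoproteasome genes to those of the 3 constitutive genes was 1.43, 1.52 and 1.48 in WT and 1.67, 1.31 and 1.11 in KO. WT libraries kept a near-constant ratio, and the KO libraries lay above and below all of them. The mean ratio was 1.48 ± 0.050 (SD, n = 3) in WT and 1.36 ± 0.28 (SD, n = 3) in KO. A 2-sided exact permutation test on the log2 ratios, used for the pairs below too, gave p = 0.60 (adjusted p = 0.70 over 4 ratios). With 3 against 3 this test cannot go below 0.10.

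**Figure D3:**
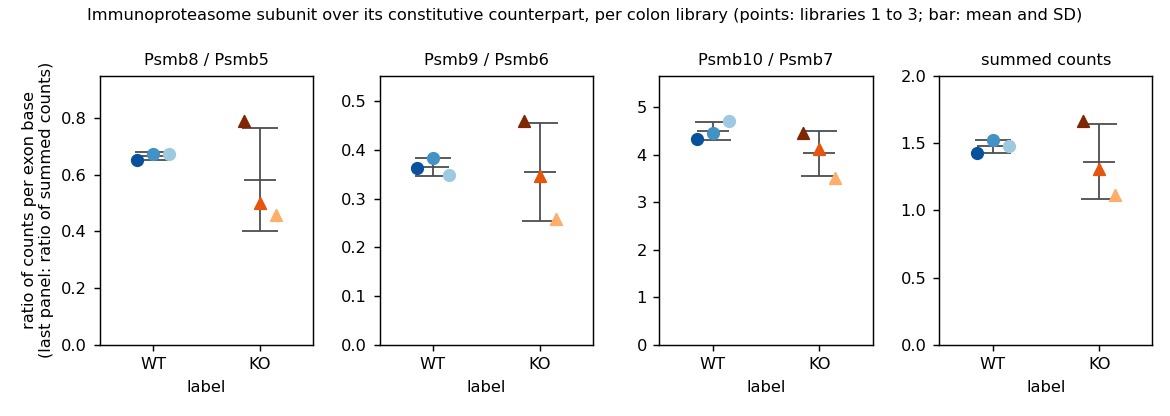
Ratio of each immunoproteasome subunit to its constitutive counterpart in each colon library, from counts per exon base (first 3 panels) and from summed counts (last panel); bars give the mean and SD of 3 libraries. The WT points lie together (1.43 to 1.52 for the summed counts), and the KO points run from 1.67 in replicate 1 to 1.11 in replicate 3.

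By subunit pair, and per exon base, the ratio of Psmb8 to Psmb5 was 0.649, 0.672 and 0.674 in WT and 0.790, 0.499 and 0.458 in KO. The KO libraries were on both sides of the tight WT group (exact permutation p = 0.40, adjusted p = 0.70). The ratio of Psmb9 to Psmb6 was 0.363, 0.384 and 0.349 in WT and 0.460, 0.346 and 0.259 in KO (exact permutation p = 0.70, adjusted p = 0.70). That of Psmb10 to Psmb7 was 4.33, 4.46 and 4.72 in WT and 4.45, 4.13 and 3.51 in KO (exact permutation p = 0.20, adjusted p = 0.70). KO replicate 3 had the lowest ratio of the 6 libraries in all 3 pairs.

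Nlrc5 varied most of the 10 members. Nlrc5 (ENSMUSG00000074151, chromosome 8) stood at 32.6, 20.1 and 23.8 CPM in WT and at 36.5, 23.3 and 17.97 CPM in KO. Replicate 1 was highest in either group, and the highest library was 2.03 times the lowest. The labels differed by 0.024 ± 0.31 (SE, log2, 95% interval from -0.74 to 0.78, edgeR adjusted p = 0.990), the widest interval of the 10 members. KO minus WT was -0.67 among Xist-high and 0.74 among Y-linked libraries. By the make-up of the sets, the gap between these values puts replicate 1 of both groups against the rest. It thus restates that replicate 1 was highest, and a dependence on the set cannot be told apart from that. That difference between the sets, 1.40, did not pass edgeR's test of the interaction over all genes (adjusted p = 0.177), and each set rests on a single library on one side. Some marker lists, immune and other, were also highest in WT replicate 1 and KO replicate 1, but not all. The 4 leukocyte markers Ptprc, Coro1a, Laptm5 and Lcp1 summed to 395 CPM in WT replicate 1 and 436 CPM in KO replicate 1, against 230 to 346 CPM in the rest, and the 6 T cell markers to 71.4 and 98.7 CPM against 36.6 to 51.2 CPM. The 6 macrophage and dendritic cell markers summed to 384 and 439 CPM, against 270 to 298 CPM in the rest. The 5 B and plasma cell markers stood at 244 and 276 CPM, against 147 to 247 CPM, and the 4 neutrophil markers at 41.9 and 12.0 CPM, against 5.38 to 78.7 CPM, so these lists did not separate the libraries in that way. Outside the immune lists, the 4 endothelial markers summed to 327 and 352 CPM, against 211 to 324 CPM. The 5 smooth muscle markers summed to 1225 and 1195 CPM, against 703 to 1148 CPM. The 7 epithelial markers were not highest there, at 1859 and 2105 CPM against 1918 to 2186 CPM. The part of cell content, immune or other, in the Nlrc5 values was not tested.

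Ordered by level per kilobase of annotated exon, B2m came first with 88.1 ± 5.69 CPM per kb (SD, n = 3) in WT and 91.5 ± 0.560 in KO. H2-D1 followed with 59.1 ± 2.86 and 61.2 ± 1.48, then H2-K1 with 52.8 ± 3.66 and 53.2 ± 0.695, and Tapbp with 50.6 ± 2.76 and 49.6 ± 1.04 CPM per kb. H2-K1 and Tapbp overlapped over the 6 libraries, as did each neighbouring pair of Tap2, Tap1, Psmb8 and Psmb9, whose means ran from 16.9 down to 11.3 CPM per kb. Psmb10 lay between these sets with a mean of 43.1 CPM per kb, and Nlrc5 was last with 3.03 CPM per kb. The annotated exons include rare transcript forms, and dense genes may be understated, so these are levels on the scale of the deposited counts.

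Low values in KO replicate 3 were found in other lists and markers too. That library was the lowest of the 6 for 6 members, beside 23.9% of all tested genes, and WT replicate 1 was the lowest for the other 4 (H2-K1, H2-D1, B2m and Tapbp), beside 19.1%. Library totals ran from 7304082 counts in KO replicate 3 to 8652561 in WT replicate 1. The part of these totals in the ranks was not tested. KO replicate 3 was also lowest for 12 of the 18 other class I and class I-like genes tested and for 6 of 6 class II genes. The 5 smooth muscle markers summed to 703 CPM in KO replicate 3 and to 1023 to 1225 CPM in the other libraries. The 4 neutrophil markers summed to 78.7 CPM there, against 66.0 CPM in KO replicate 2 and 5.38 to 41.9 CPM in the rest. The 7 epithelial markers summed to 1918 CPM in KO replicate 3, inside the range of WT, 1859 to 2186 CPM. KO replicate 3 was the lowest library for 2 of these 7 markers, Slc26a3 among them, and WT replicate 1 for the rest. All 7 averaged above 0.3 counts per exon base (0.322 to 0.759), as did H2-K1, H2-D1, B2m, Tapbp and Psmb10. By mean log2 CPM the epithelial list was lowest in KO replicate 3, 0.12 below its 6-library mean, and next lowest in WT replicate 1. Over the 6 libraries that mean had r = 0.93 with the mean of the members' standardized log2 CPM, a description of libraries that share their scaling. The same r was 0.77 for class II genes and 0.73 for other class I and class I-like genes. Among marker lists it was 0.63 for smooth muscle, 0.54 for B and plasma cells, 0.28 for leukocytes and 0.19 for T cells. It was -0.025 for endothelium, -0.15 for macrophages and dendritic cells and -0.64 for neutrophils. Slc26a3, the chloride exchanger of surface colonocytes, stood at 253, 304 and 318 CPM in WT and at 295, 253 and 154 CPM in KO, again lowest in KO replicate 3. It differed by -0.31 ± 0.24 (SE, log2), and by -0.080 without KO replicate 3. In all, 4 of the 7 epithelial markers were higher and 3 lower by fitted mean in KO (median 0.0076), with Epcam at 0.07 ± 0.08. Of the 6 T cell markers tested, 4 were higher and 2 lower (median 0.18), with Cd8a at -0.042 ± 0.57, and of the 4 leukocyte markers 3 were higher and 1 lower (median 0.10), with Ptprc at 0.19 ± 0.37 (SE, log2). Cd8b1 was too low to be tested. The part of cell content in the low values of KO replicate 3 was not tested. Nor was the part of read density in the r of the epithelial list.

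**Figure D4:**
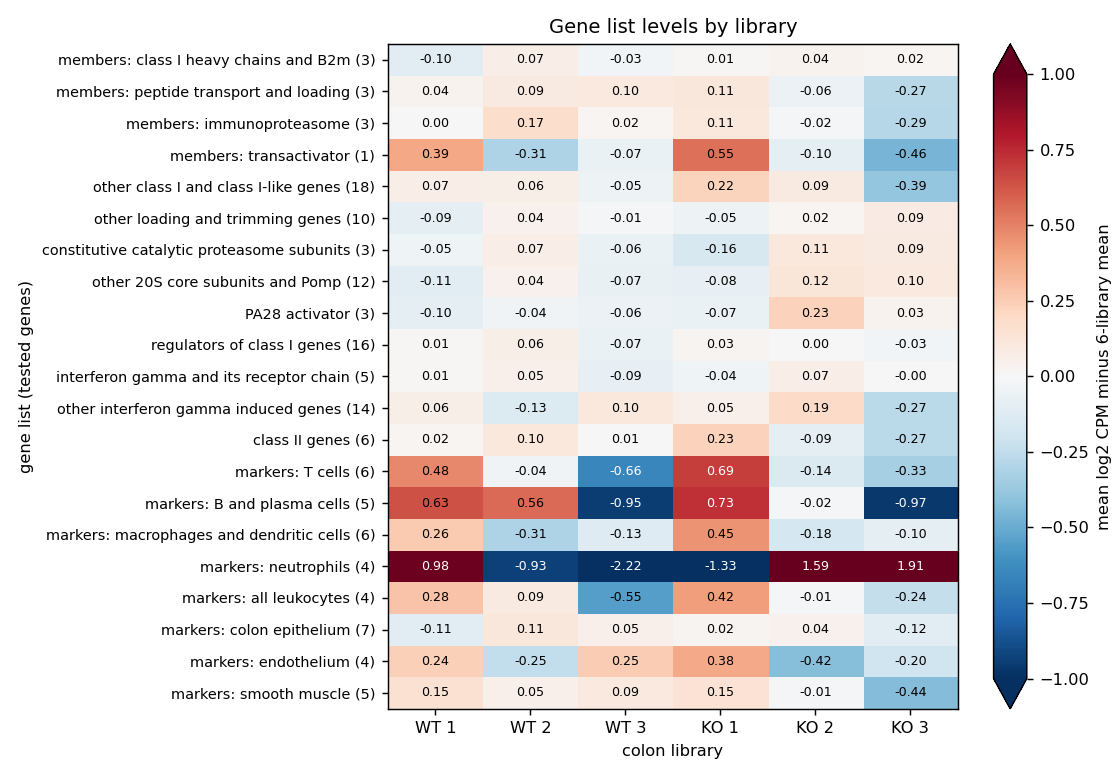
Rows are gene lists with the number of tested genes in parentheses, columns the 6 colon libraries; each cell gives the list's mean log2 CPM minus its mean over the 6 libraries (red higher, blue lower, colors saturate at 1). KO replicate 3 is low for peptide loading (-0.27), immunoproteasome (-0.29) and class II genes (-0.27) and not for the constitutive proteasome (0.094).

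Among the other class I and class I-like genes, 7 were higher and 11 lower by fitted mean in the KO libraries (median log2 difference -0.038). EdgeR called none of the 18. Beside 5.06% of all genes, 1 of the 18 had an unadjusted p under 0.05. That gene was Fcgrt, the neonatal Fc receptor, a class I-like protein that pairs with B2m and carries antibodies across epithelium. Fcgrt stood at 104, 106 and 108 CPM in WT and at 97.9, 84.0 and 72.2 CPM in KO. The groups did not overlap, as in 5.04% of all genes on the lower side, and the difference was -0.32 ± 0.12 (SE, log2, edgeR adjusted p = 0.829). H2-Q1 and H2-Q2, nonclassical heavy chains, differed by -0.51 ± 0.36 and -0.33 ± 0.22, and Cd1d1, which presents lipids to NKT cells, by 0.45 ± 0.21 (SE, log2), with overlapping groups for all 3.

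Loading and trimming genes outside the member list were mostly level. Of 10 tested, 8 had higher and 2 lower fitted means in KO (median 0.083). EdgeR called none, and 1 had an unadjusted p under 0.05, beside 5.06% of all genes. Tapbpl, the tapasin relative TAPBPR that edits the peptides of class I, stood at 72.6, 82.0 and 81.3 CPM in WT and at 66.0, 69.3 and 63.7 CPM in KO. All KO libraries were below all WT libraries, as in 5.04% of all genes, and the difference was -0.24 ± 0.080 (SE, log2, edgeR adjusted p = 0.829). Unlike Tap1 and Psmb8, Tapbpl was low in KO replicate 1 too, and its difference stayed between -0.29 and -0.21 when single libraries were left out. The trimming peptidase Erap1 differed by 0.097 ± 0.059 (SE, log2) with all KO libraries above all WT libraries. Groups did not overlap, in either direction, for 9.58% of all genes. The chaperone Canx, which folds new heavy chains, differed by 0.13 ± 0.081 and the intramembrane protease Sppl2a by 0.20 ± 0.12 (SE, log2).

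The noncatalytic part of the proteasome was represented by 11 core subunits, the assembly chaperone Pomp and the 3 subunits of the PA28 cap. All 12 genes of the first list and all 3 of PA28 had higher fitted means in KO, with medians of 0.095 and 0.12. EdgeR called none of either list, nor had any an unadjusted p under 0.05, beside 5.06% of all genes. The core subunits Psma7, Psma6, Psma3 and Psma4 differed by 0.12 ± 0.088, 0.11 ± 0.086, 0.20 ± 0.16 and 0.13 ± 0.12 (SE, log2). Psme1 and Psme2, the interferon-inducible subunits of PA28, differed by 0.063 ± 0.08 and 0.24 ± 0.19, and the nuclear cap subunit Psme3 by 0.12 ± 0.11 (SE, log2). Psme1 and Psme2 were thus not low together with Psmb8 and Psmb9.

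**Figure D5:**
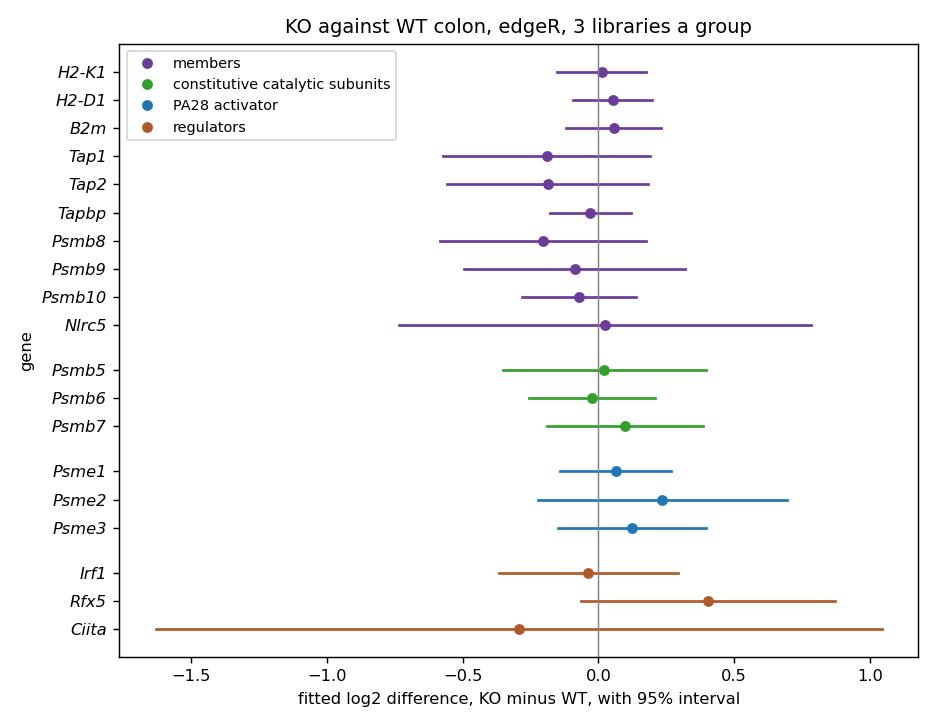
Points are fitted log2 differences (KO minus WT, edgeR, 3 libraries a group) and lines their 95% intervals, for the members, the constitutive catalytic subunits, the PA28 activator and the regulators Irf1, Rfx5 and Ciita. The intervals of all 10 members include 0 and run from -0.15 to 0.18 for H2-K1 and from -0.74 to 0.78 for Nlrc5.

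Interferon gamma, the main inducer of the pathway, was hardly detected: Ifng had 0, 1 and 1 counts in WT and 0, 1 and 0 in KO and was not tested. Its receptor chains Ifngr1 and Ifngr2 differed by -0.067 ± 0.081 and 0.079 ± 0.08, and the kinases Jak1 and Jak2 by -0.10 ± 0.074 and 0.12 ± 0.11 (SE, log2). Of the 14 other interferon gamma induced genes tested, 7 were higher and 7 lower in KO with a median of 0.0028. EdgeR called none, with 0 at an unadjusted p under 0.05, beside 5.06% of all genes. Ido1, which breaks down tryptophan, differed by -1.06 ± 0.51 (SE, log2). Its groups did not overlap, as in 5.04% of all genes on the lower side. Gbp2 differed by -0.30 ± 0.19, Gbp4 by 0.34 ± 0.20 and Icam1, an adhesion molecule, by 0.36 ± 0.22 (SE, log2).

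Of 16 regulators of class I genes, 9 were higher and 7 lower in KO (median 0.0063). EdgeR called none. Beside 5.06% of all genes, 3 of the 16 had an unadjusted p under 0.05. These were Ezh2, the methyltransferase of the Polycomb complex, with 0.43 ± 0.16, and the subunits Rfxank and Nfya of the factors that bind the X and Y boxes, with -0.33 ± 0.12 and -0.21 ± 0.085 (SE, log2, edgeR adjusted p = 0.829 for each). Rfxank and Nfya had non-overlapping groups, as 5.04% of all genes did on the lower side. Rfx5, which forms one complex with Rfxank, differed by 0.41 ± 0.19 in the other direction. Irf1, which binds the response element and drives Tap1 and Psmb9, stood at 122, 162 and 134 CPM in WT and at 147, 142 and 118 CPM in KO, with a difference of -0.036 ± 0.14 (SE, log2).

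Class II genes had a median difference of -0.050, with 5 of 6 lower in KO and none called by edgeR. H2-Ab1, H2-Aa, H2-DMa and H2-DMb1 differed by -0.07 ± 0.11, -0.029 ± 0.10, -0.15 ± 0.23 and -0.13 ± 0.26 (SE, log2). Their transactivator Ciita, the relative of Nlrc5, stood at 53.1, 52.2 and 28.4 CPM in WT and at 68.4, 22.7 and 17.8 CPM in KO. Like Nlrc5, Ciita was highest in KO replicate 1 and lowest in KO replicate 3, and it differed by -0.29 ± 0.55 (SE, log2).

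Of 12455 named genes with a mean of at least 50 counts, 5 followed the members most closely over the 6 libraries, by Pearson's r with the mean of the members' standardized log2 CPM. They were the nonclassical class I gene H2-T23 (r = 0.991), Papss2 (r = 0.984), Tmbim1 (r = 0.983), Irf1 (r = 0.980) and Ifngr1 (r = 0.980). These values describe 6 libraries that share their scaling, and high r values arise readily among so many genes. H2-T23, which encodes Qa-1, the ligand of an inhibitory receptor of NK cells, stood at 69.1, 80.6 and 73.9 CPM in WT and at 77.2, 75.3 and 67.4 CPM in KO, a difference of -0.024 ± 0.092 (SE, log2). KO replicate 3 was the lowest of its 6 libraries, and the other KO values lay inside the WT range.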

How the data were processed

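RNA sequencing read counts per Ensembl gene, as deposited by the authors in 1 table per library, were used for 6 colon libraries; per the file headers they are read counts, whole and not normalized by their values. STAR, TopHat2, RSEM, HTSeq and DESeq2 and the builds mm10 and GRCm38 are named in the submitters' processing notes, without versions or roles; duplicate removal, strand setting and the handling of multiply aligned reads are not given in the sources used here. GENCODE vM21 held 99.8% of the gene IDs and gave positions and exon lengths (the union of annotated exons).

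Groups came from sample titles. Genes passing filterByExpr (17195) were TMM-scaled; the test was the robust quasi-likelihood test of edgeR 4.0.16 in R 4.3.3, with Benjamini-Hochberg adjustment over all tested genes and a threshold of 0.05. All 10 members passed the filter. CPM are counts over TMM-scaled library sizes; log2 CPM used a prior count of 2. DESeq2 1.42.0 was run on all genes and limma 3.58.1 (voom with quality weights) on the filtered ones. The fits were tested on simulated data. The interaction of label and Xist-high or Y-linked set was fitted in edgeR, with a set called Xist-high above 50 CPM. The chi-square per degree of freedom between replicates of a group was 5.19 or more, so none repeats another. Intervals cover the spread of these samples only, since the labels do not state that each library was a separate animal.

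The members, the other gene lists and the alternatives were chosen with earlier results of these data known. The genes named are the members, S1pr4, the 4 genes with the smallest p of each pathway list, the counterparts and main regulators, and the 5 genes most like the members. Marker lists are given by their levels and counts, and of their genes the rule takes Ptprc, Cd8a, Epcam and the 4 with the smallest p, of which Slc26a3 is named. Cd8b1 is named as the marker not tested. The other marker genes of the rule are not named, and 1 further gene is not reported here.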

Additional observations from a re-analysis of the deposited data

How the results depend on the processing

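The count of 0 members called held under other scaling, filters, DESeq2, limma-voom, a term for the Xist-high and Y-linked sets and each left-out library. Genes called over the table numbered 0 in edgeR and 14 in DESeq2, none of them a member; S1pr4 was one of these (DESeq2 adjusted p = 0.0043). The median member difference was -0.19 over the 5 members at or below 0.3 counts per exon base, an alternative added after seeing the data, and ran from -0.14 to 0.0053 when single libraries were left out.

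With the replicate number as a block, edgeR called 0 genes, the lowest adjusted p of a member was 0.697 and the median was -0.050. Deviations of same-numbered libraries from their group means had r = -0.039, 0.21 and -0.23 over all genes, not all above 0.1, so the numbers were not taken to pair the libraries. Over the 10 members alone r was 0.76, 0.51 and 0.26. In neither case did every library correlate best with its own number. Nlrc5 was -0.0064 with the block and -0.052 in limma-voom. With total counts as the scaling, Psmb6, H2-T23 and Tmbim1 were 0.0078, 0.0043 and 0.010; Psmb6 was 0.043 in limma-voom. With the set term Psmb5, Irf1, H2-Aa, Papss2, H2-T23 and Tmbim1 were -0.015, 0.045, 0.017, 0.0083, 0.023 and 0.012. The sum over 17 heavy chain genes, tried in place of H2-K1 and of H2-D1, differed by -0.041.

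Signs also turned when single libraries were left out, with log2 ranges from -0.029 to 0.058 for H2-K1, -0.054 to 0.013 for Tapbp, -0.22 to 0.076 for Psmb9, -0.31 to 0.25 for Nlrc5, -0.038 to 0.11 for Psmb5, -0.075 to 0.055 for Psmb6, -0.12 to 0.087 for Irf1 and -1.14 to 0.041 for Ciita. The ranges were -0.066 to 0.040 for H2-T23, -0.099 to 0.024 for Papss2, -0.053 to 0.042 for Tmbim1, -0.16 to 0.031 for H2-Ab1, -0.13 to 0.060 for H2-Aa, -0.43 to 0.017 for H2-DMa, -0.47 to 0.048 for H2-DMb1, -0.15 to 0.52 for Ptprc and -0.80 to 0.42 for Cd8a. The cause of these changes was not tested.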

Other observations

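H2-T3, a class I-like gene whose product, the thymus leukemia antigen, is known from intestinal epithelium, stood at 3.43, 15.9 and 4.63 CPM in WT and at 2.55, 18.1 and 2.04 CPM in KO. It was singled out after its values were seen. Replicate 2 of either group was high and the other 4 libraries were low, and the groups overlapped (log2 difference -0.073 ± 1.00 SE, edgeR adjusted p = 0.991).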
